A study of Rattus norvegicus with 19 samples.

Results

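Erythroid genes were followed in the liver of neonatal rats whose dams had received the flame retardant mixture DE-71. The genes were Epor, Gata1, Klf1, Tfrc, Alas2, Hbb, Slc4a1 and Rhag, chosen as known erythroid genes with earlier results of these data at hand, and found by symbol in the platform annotation. All 8 were found, with 12 probe sets among the 31042 tested and as 8 of the 14217 genes that had a probe set with 1 symbol. Where a gene had more than 1 probe set, the brightest on average over the 19 arrays leads. None of the 8 changed past the threshold at any dose, while their levels varied together over the arrays, within the dose groups as well as over all of them.

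The arrays were Affymetrix Rat230_2, which measure RNA through probe sets of short oligonucleotides near the 3' end of each transcript. Per the labels, timed-mated Wistar Han (Crl:WI(Han)) females were gavaged daily with corn oil alone (vehicle) or with DE-71 in corn oil from gestation day 6 until postnatal day 4, and frozen left lateral liver lobe taken on that day gave the RNA. DE-71 is a commercial mixture of brominated diphenyl ethers. The groups were vehicle with 5 arrays, 0.1 mg/kg per day with 5, 15 mg/kg with 4 (replicates 2 to 5) and 50 mg/kg with 5. All animals were of 1 strain with no genetic change named, and the vehicle group shared the oil and the gavage. The labels do not say whether an array holds 1 animal or a pool, nor which arrays share a litter, so p-values cover only how much these arrays vary.

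In the fetal and newborn rat the liver still makes red blood cells. Progenitors held alive by erythropoietin divide, take up iron through the transferrin receptor, build heme, fill with globin and lay down the membrane proteins of the red cell, under transcription factors that bind GATA motifs and CACCC boxes in erythroid promoters and enhancers. As the bone marrow takes over, red cell formation in the liver ends after birth.

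The promoters of 4 members that varied together are shown because they let those motifs be seen beside the values. RefSeq windows of build GRCr8 matched 7 of the 8 members, and Slc4a1 had none. The windows of Alas2 and Gata1 begin inside the annotated gene (4800 and 8346 bases from its outermost start) and are not printed, and that of Epor reaches 49 bases into its gene in the same way. Each sequence is the 150 bases before the annotated start, read 5′ to 3′ on the gene's own strand, which is the minus strand for all 4. Capitals mark a GATA motif (GATA with A or T before it and A or G after it, on either strand) or a CACCC box (CACCC on either strand). The windows are chr1:167663722-167663871 for Hbb, chr19:40158652-40158801 for Klf1, chr8:28770323-28770472 for Epor and chr9:27594391-27594540 for Rhag.
Hbb: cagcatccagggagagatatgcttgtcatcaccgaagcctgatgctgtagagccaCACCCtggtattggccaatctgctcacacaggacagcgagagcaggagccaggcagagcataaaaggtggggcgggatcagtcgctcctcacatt
Klf1: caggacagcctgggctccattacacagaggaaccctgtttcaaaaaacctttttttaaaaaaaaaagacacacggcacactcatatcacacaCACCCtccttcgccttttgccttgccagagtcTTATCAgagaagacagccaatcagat
Epor: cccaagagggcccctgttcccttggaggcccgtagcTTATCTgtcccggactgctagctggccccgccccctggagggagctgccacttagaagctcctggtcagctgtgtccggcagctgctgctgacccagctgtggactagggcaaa
Rhag: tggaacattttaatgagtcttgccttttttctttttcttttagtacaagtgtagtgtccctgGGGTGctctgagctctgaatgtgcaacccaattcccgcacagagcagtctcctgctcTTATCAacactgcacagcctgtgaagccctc
The Klf1 and Rhag windows each hold a GATA motif close to the start (its first base 26 and 31 bases upstream) and a CACCC box farther out (58 and 88 bases). The Epor window holds a GATA motif 114 bases upstream and the Hbb window a CACCC box 95 bases upstream. The Tfrc window, not printed, held no GATA motif in its 250 bases. Its CACCC boxes began 181 and 241 bases upstream, so its last 150 bases would carry no capitals. Over the 250 bases before the start, in all 7 windows whether printed or not, 4 of 7 members held a GATA motif, against 27.0% of 33469 RefSeq windows. A CACCC box stood in 6 of 7 members, against 49.2% of windows. The longer form CCNCNCCC, which can overlap it, stood in 4 of 7 members and in 42.8% of windows. An E-box (CANNTG) stood in 4 of 7 members and in 65.5% of windows. These matches describe letters and not bound sites.

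The labels were checked before the comparisons. The hepatocyte genes Afp and Alb, encoding α-fetoprotein and albumin, lay at 14.47 to 14.70 and 15.01 to 15.06 log2 signal on all arrays. Cyp1a1, the enzyme that dioxin-like compounds induce, lay at 7.10 to 8.36 log2 in vehicle livers, 13.16 to 14.17 at 15 mg/kg and 14.11 to 14.30 at 50 mg/kg. The array labelled 0.1 mg/kg replicate 1 had 14.06 log2, in the range of the higher doses, where the others of its group had at most 8.42. Replicate 2 at 0.1 mg/kg and vehicle replicate 2 were the nearest of the 171 pairs of arrays (SD of their probe set differences 0.1275 log2, against 0.1968 for the next pair and a median of 0.385), and none of the 8 genes differed by more than 0.12 log2 between them. Results are therefore also given without these 3 arrays. The labels give the sex as female, whereas the Y-linked genes Eif2s3y and Uty had 9.46 to 10.07 log2 and the X inactivation transcript Xist 3.88 to 4.29 log2 over the 19 arrays. Of the arrays numbered up to 8 in the labels (early below), 4 of 7 were at 50 mg/kg. The arrays numbered 9 to 20 (late below) held 1 array at 50 mg/kg, and 4 of the 5 vehicle arrays.

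Epor encodes the erythropoietin receptor, through which progenitors receive their survival signal. Its log2 signals were 6.94, 7.43, 7.98, 8.18 and 8.15 in vehicle livers, 7.65, 7.48, 8.02, 7.74 and 7.56 at 0.1 mg/kg, 7.36, 7.50, 7.63 and 7.59 at 15 mg/kg, and 7.42, 6.57, 7.62, 8.13 and 7.28 at 50 mg/kg. The groups overlapped, with the widest spread in the vehicle and the 50 mg/kg livers. The other probe sets of Epor were dim, at means of 5.66 and 5.97 log2 at 50 mg/kg, against 5.49 and 5.98 log2 in vehicle livers. The dimmer of them ordered the arrays otherwise: 50 mg/kg replicates 1 and 2 ranked 19 and 10 from the lowest, against 5 and 1 on the leading set. Vehicle replicate 1 ranked 4 on the dimmer set and 2 on the leading set. On the brighter of them vehicle replicate 1 and 50 mg/kg replicate 2 ranked 1 and 4.

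Gata1 encodes the zinc finger factor that binds GATA motifs and drives most erythroid genes. Its log2 signals were 5.69, 6.92, 7.72, 7.93 and 7.87 in vehicle livers, 6.97, 6.80, 7.78, 7.60 and 6.42 at 0.1 mg/kg, 6.37, 6.96, 6.96 and 6.94 at 15 mg/kg, and 6.82, 5.34, 7.39, 8.03 and 6.82 at 50 mg/kg. The lowest and the highest array both came from the 50 mg/kg livers. Klf1 encodes the factor that binds CACCC boxes, the adult β-globin promoter among them. It had 7.74, 9.19, 10.41, 10.15 and 9.96 log2 in vehicle livers, 9.19, 9.19, 9.89, 9.78 and 8.76 at 0.1 mg/kg, 8.64, 9.25, 9.58 and 9.13 at 15 mg/kg, and 9.12, 7.88, 9.62, 10.50 and 8.85 at 50 mg/kg. Vehicle replicate 1 was the lowest array for Klf1 and 50 mg/kg replicate 2 the next, so neither end of the range belonged to 1 dose.

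Tfrc encodes the transferrin receptor, which imports iron into erythroblasts and into dividing cells of other kinds. Its leading probe set had 11.68, 12.36, 12.70, 12.71 and 12.63 log2 in vehicle livers, 12.39, 12.38, 12.53, 12.56 and 11.85 at 0.1 mg/kg, 12.03, 12.26, 12.46 and 12.36 at 15 mg/kg, and 12.51, 12.01, 12.57, 13.15 and 12.38 at 50 mg/kg. Replicate 4 of the 50 mg/kg livers stood above every other array. The other Tfrc probe set averaged 10.31 ± 0.623 log2 in 50 mg/kg livers and 10.01 ± 0.735 log2 in vehicle livers (SD, n = 5 each).

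Alas2 encodes the erythroid 5-aminolevulinate synthase, the first enzyme of heme synthesis in red cell precursors. It had 9.80, 10.85, 11.42, 11.77 and 11.68 log2 in vehicle livers, 10.93, 10.86, 11.24, 11.18 and 10.64 at 0.1 mg/kg, 10.61, 10.70, 10.89 and 10.95 at 15 mg/kg, and 10.67, 9.83, 11.20, 11.53 and 10.52 at 50 mg/kg. Hbb encodes the β chain of hemoglobin. It lay between 14.22 and 14.56 log2 in vehicle livers, 14.36 and 14.52 at 0.1 mg/kg, 14.34 and 14.48 at 15 mg/kg, and 14.07 and 14.53 at 50 mg/kg. The same pair of arrays, 50 mg/kg replicate 2 and vehicle replicate 1, was lowest for both genes, although Hbb spanned only 1.41-fold from the lowest to the highest array. No probe set on any array exceeded 15.06 log2, so the Hbb signals lay close to the top of the scale, where differences are compressed.

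Slc4a1 encodes band 3, the anion exchanger that anchors the red cell membrane to its skeleton. Its leading probe set had 8.99, 10.74, 11.13, 11.45 and 11.27 log2 in vehicle livers, 10.43, 10.77, 10.78, 10.73 and 9.84 at 0.1 mg/kg, 10.08, 10.20, 10.38 and 10.68 at 15 mg/kg, and 9.91, 8.92, 10.65, 11.26 and 9.99 at 50 mg/kg. The other Slc4a1 probe set averaged 8.77 ± 0.783 log2 in 50 mg/kg livers and 9.13 ± 0.915 log2 in vehicle livers (SD, n = 5 each). Rhag encodes the Rh-associated glycoprotein, a membrane channel of the Rh complex. It had 6.70, 8.36, 9.60, 9.26 and 8.99 log2 in vehicle livers, 8.72, 8.39, 9.04, 8.66 and 8.23 at 0.1 mg/kg, 7.57, 8.13, 8.78 and 8.50 at 15 mg/kg, and 8.32, 6.97, 8.86, 9.55 and 8.14 at 50 mg/kg. Rhag covered the widest range of the 8 genes, 7.44-fold, and its dose groups overlapped like those of the others. The plot of the genes by dose shows every array.

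**Figure D1:**
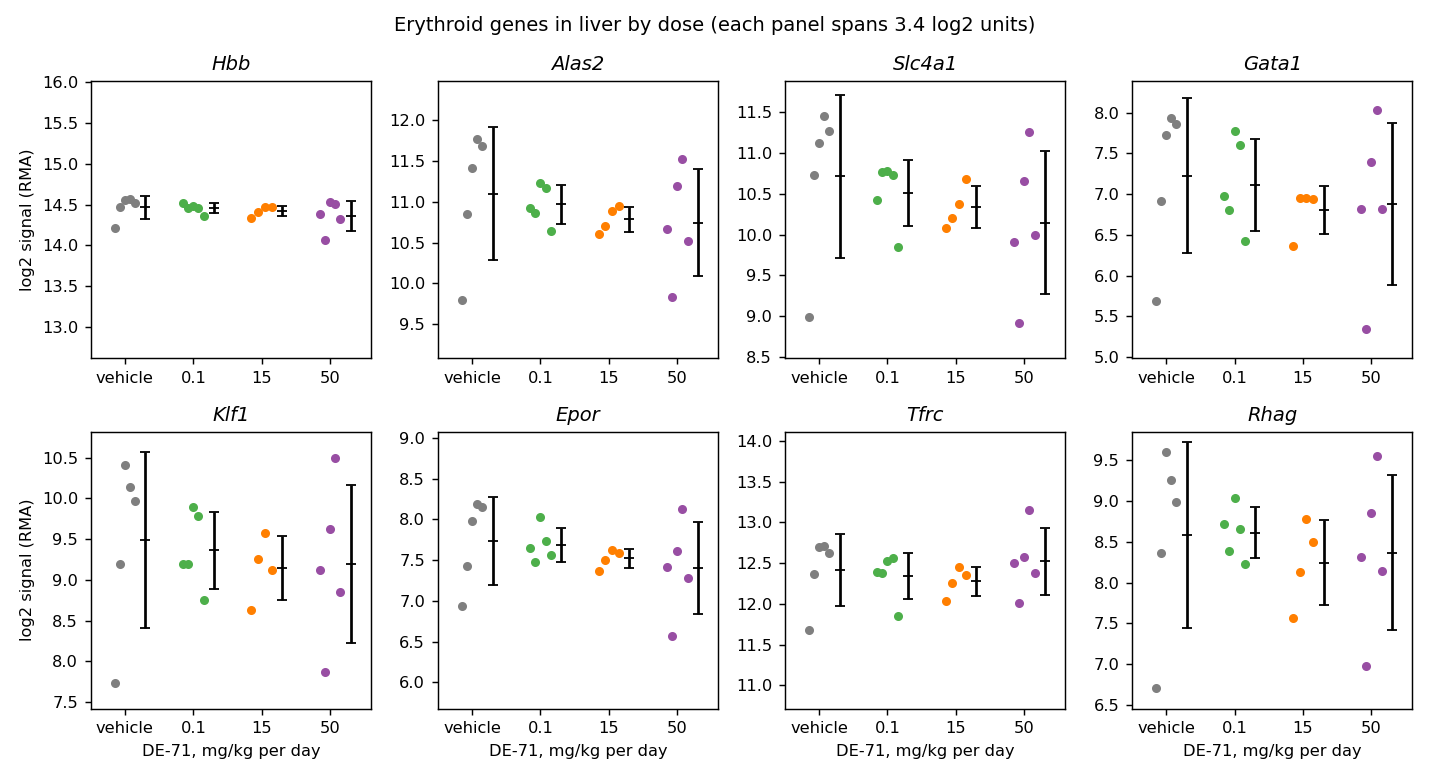
Log2 signal (y axis, RMA) of the 8 erythroid genes at each dose of DE-71 (x axis, mg/kg per day, with vehicle at the low end). Points are arrays and bars are mean ± SD (n = 5, 5, 4 and 5), with every panel spanning the same number of log2 units. The groups overlap in each panel, and the spread is wide in the vehicle and 50 mg/kg livers for all genes except Hbb.

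At 50 mg/kg, 0 of the 8 genes passed the test (limma, two-sided, p-values adjusted by Benjamini-Hochberg over 31042 probe sets, threshold 0.05), and 0 had an unadjusted p under 0.05. Over all probe sets 1.61% were called in that comparison, 1.22% higher and 0.383% lower, and 4791 had an unadjusted p under 0.05. Slc4a1 averaged 10.15 ± 0.879 log2 in 50 mg/kg livers and 10.72 ± 1.00 log2 in vehicle livers (SD, n = 5 each), a log2 fold change of -0.57 ± 0.425 (SE) with a 95% interval of -1.46 to 0.32 and an adjusted p of 0.545. The other Slc4a1 probe set had a smaller difference, -0.36 ± 0.378 (SE, limma adjusted p = 0.682). Alas2 averaged 10.75 ± 0.655 log2 at 50 mg/kg and 11.10 ± 0.813 log2 in vehicle livers, and its log2 fold change was -0.36 ± 0.326 (SE, limma adjusted p = 0.631). The log2 fold change was -0.34 for Gata1, -0.33 for Epor, -0.30 for Klf1, -0.22 for Rhag and -0.11 for Hbb, with adjusted p-values from 0.545 to 0.857 over the 8 genes. Tfrc alone was above 0, at 0.11 ± 0.209 (SE), with an interval of -0.33 to 0.55. The intervals of 6 genes ran below -0.8 log2, so the arrays do not show that these genes were alike in dosed and vehicle livers. Since this is bulk liver, fewer erythroid cells and less of a transcript per cell cannot be told apart.

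The lower doses gave the same picture. At 15 mg/kg, 0 of the 8 genes were called, against 0% of all probe sets (3083 of which had an unadjusted p under 0.05, and none of the 8 genes), with adjusted p-values from 0.754 to 0.88. Slc4a1 averaged 10.34 ± 0.261 log2 in 15 mg/kg livers (n = 4), with a log2 fold change of -0.38, and Gata1 6.81 ± 0.293 log2, with -0.42. At 0.1 mg/kg, 0 of the 8 genes were called, against 0% of all probe sets (763 with an unadjusted p under 0.05), with adjusted p-values of 1. The log2 fold changes there lay between -0.21 for Slc4a1 and 0.03 for Rhag. The moderated F over the 4 dose groups called 0 of the 8 genes, at adjusted p-values from 0.843 to 0.961, against 0.325% of all probe sets.

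The direction of the differences was the same for nearly all of the genes, which share their arrays. Of the 8 genes, 7 were below 0 at 50 mg/kg, 8 at 15 mg/kg and 7 at 0.1 mg/kg, where 45.6%, 45.5% and 41.5% of all probe sets were below 0. The median log2 fold change of the 8 genes was -0.32 at 50 mg/kg, -0.33 at 15 mg/kg and -0.09 at 0.1 mg/kg, against medians of 0.018, 0.018 and 0.021 over all probe sets. These comparisons share the vehicle arrays. For Gata1, Klf1 and Rhag the direction at 50 mg/kg rested on few arrays: without 50 mg/kg replicate 2 their log2 fold changes were 0.04, 0.03 and 0.13. Without vehicle replicate 1 those of Slc4a1 and Klf1 were -1.002 and -0.74. Hbb, Alas2, Slc4a1 and Epor stayed below 0 at 50 mg/kg in all 25 alternatives, with none past the threshold. With a block term for early and late arrays, Gata1, Klf1 and Rhag were at 0.05, 0.10 and 0.21. The early arrays held 1 vehicle array and the late arrays 1 at 50 mg/kg, so no difference is given within either set. Without the 3 arrays named above, 0 of the 8 genes passed at any dose. The plot of differences gives the intervals.

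**Figure D2:**
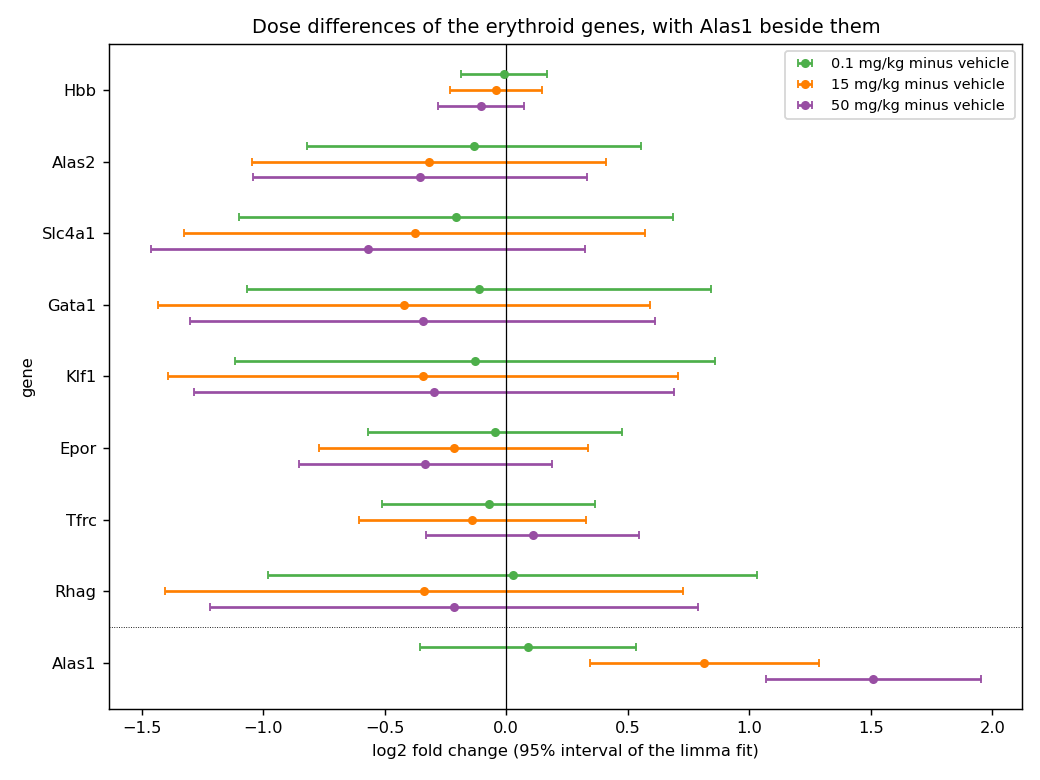
Log2 fold change against vehicle (x axis) of the 8 erythroid genes and of Alas1 at 0.1, 15 and 50 mg/kg per day, with 95% intervals of the limma fit as bars. The intervals of all 8 genes cross 0 at each dose, whereas that of Alas1 at 50 mg/kg lies from 1.07 to 1.95.

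The erythroid genes were among the most variable of the array within a dose group. The within-group SD of Rhag was 0.820 log2, above that of 98.0% of probe sets, and those of Klf1, Gata1 and Slc4a1 (0.806, 0.778 and 0.728 log2) were above 97.9%, 97.8% and 97.4%. The median over all probe sets was 0.169 log2. Alas2, Epor and Tfrc exceeded 95.5%, 92.2% and 88.9% of probe sets, and Hbb 24.3%. Dose groups accounted for 3.48% (Klf1) to 12.2% (Hbb) of the sum of squares of the 8 genes, against a median of 17.4% over all probe sets and 82.0% for Cyp1a1.

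The variation was shared. Of the 8 genes, all 8 had 50 mg/kg replicate 2 and vehicle replicate 1 among their 3 lowest arrays, 7 had 50 mg/kg replicate 4 among their 3 highest, and all 8 had vehicle replicate 4 there. The lowest and the highest of these arrays thus came from the same 2 groups. The plot of arrays shows the 8 genes dipping and peaking together, with Hbb following at a smaller scale.

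**Figure D3:**
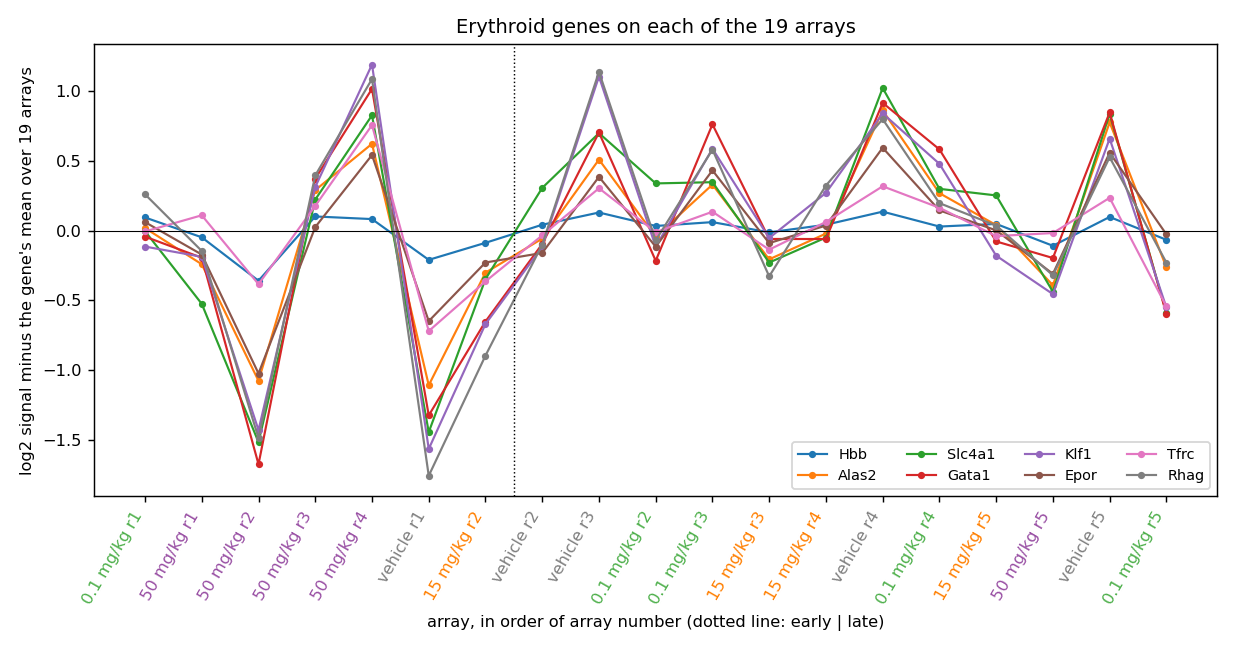
Log2 signal of each erythroid gene minus its own mean over the 19 arrays (y axis), for the arrays in the order of their number in the labels (x axis, coloured by dose, with a dotted line between the early and the late arrays). The lines fall together at 50 mg/kg replicate 2 and vehicle replicate 1 and peak together at 50 mg/kg replicate 4, vehicle replicate 3 and vehicle replicate 4.

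Every pair of the 8 genes was correlated over the 19 arrays, by the leading probe set of each gene only. Pearson's r ran from 0.73 (Hbb with Tfrc) to 0.971 (Klf1 with Rhag) with a median of 0.918 over the 28 pairs, and Spearman's rho from 0.802 to 0.961 with a median of 0.904. The two-sided permutation p-values of r, adjusted by Benjamini-Hochberg over the 28 pairs, lay between 1e-05, the smallest that 100000 resamples can give, and 0.00035, and those of rho between 1e-05 and 8e-05. The GATA factor gene Gata1 and the CACCC factor gene Klf1 correlated at 0.970, and the heme enzyme gene Alas2 and the band 3 gene Slc4a1 at 0.969. Alas2 had the highest median r with the other 7 genes, 0.952, and Tfrc the lowest, 0.840.

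The correlation remained high with dose removed and without the extreme arrays. With each dose group's mean subtracted, r ran from 0.878 to 0.974 with a median of 0.937. Without the 2 arrays farthest from the median of the x measure, it ran from 0.666 to 0.951 with a median of 0.862. Within the 7 early arrays the median r was 0.954 (0.733 to 0.994) and within the 12 late arrays 0.862 (0.659 to 0.951). Without the 3 arrays in doubt it was 0.936 (0.753 to 0.988, 16 arrays). The 19 arrays are those of a treatment study, and the genes on an array share the piece of tissue cut for it. Below its diagonal the map of pairs places Tfrc apart from the rest, most of all from Hbb and Epor. Above it, with dose means subtracted, Tfrc had 0.962 with Klf1 and 0.940 with Gata1. Its 0.878 with Hbb was still the lowest of the pairs there.

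**Figure D4:**
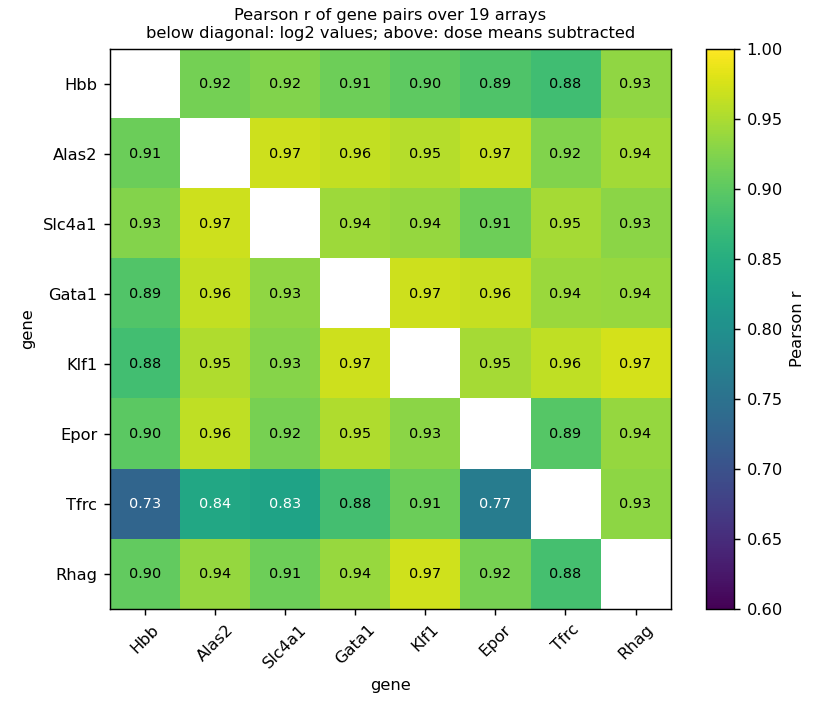
Pearson r of each pair of erythroid genes over the 19 arrays, by colour and number, for the log2 values (below the diagonal) and after subtracting the mean of each dose group (above it). Below the diagonal the row of Tfrc is lowest, down to 0.73 with Hbb, and Klf1 with Rhag is highest at 0.97.

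Transcripts of other tissues moved with some of these arrays. The mean log2 signal of 11 skeletal muscle genes was 9.80 in 50 mg/kg replicate 2 and 11.36 in vehicle replicate 1, both low in erythroid genes, and also 9.35 in 50 mg/kg replicate 3 and 9.18 in vehicle replicate 5, which were not low. On the other 15 arrays it lay between 4.56 and 7.97. Muscle actin (Acta1) spanned 3.99 to 12.65 log2 in 50 mg/kg livers and 3.48 to 13.70 log2 in vehicle livers. The 10 exocrine pancreas genes averaged 8.58 and 8.59 log2 in replicate 2 of the 0.1 mg/kg and of the vehicle livers, 7.98 at 15 mg/kg replicate 5 and 7.33 in vehicle replicate 4, and between 5.05 and 5.50 on the others. With both scores taken out of every gene the median r of the 28 pairs was 0.904. Mean levels of the hepatocyte list stayed between 13.99 and 14.12 log2 on all arrays. Many of its genes lay close to the top of the scale, where differences are compressed (Alb 15.04, Serpina1 14.64 and Afp 14.61 log2 on average). Hnf4a, at 12.26 log2, lay lower. The steady mean therefore does not show that the hepatocyte share was steady.

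The genes outside the 8 whose levels were most like theirs, by median Pearson r with the 8 over the 19 arrays among 14209 genes, were red cell genes for the most part. Ypel4 (0.962) came first, then Ahsp (0.962), the chaperone of free α-globin, Kel (0.956), the Kell blood group protein, the amino acid transporter gene Slc38a5 (0.956) and Kcnn4 (0.955), the Gardos potassium channel of red cells. Fech (0.955), the last enzyme of heme synthesis, followed with the kinase gene Dyrk3 (0.954), Nfe2 (0.952), which encodes a factor that activates globin genes, Hemgn (0.952), Tal1 (0.952), a partner of Gata1, Car1 (0.950), the red cell carbonic anhydrase, and Rhd (0.949), the Rh antigen. Over all genes the median of this likeness was 0.011. It exceeded 0.8 for 207 genes and 0.9 for 56. None of the 12 genes passed the test at 50 mg/kg, where their log2 fold changes lay between -0.52 (Kcnn4) and -0.19 (Slc38a5). The most opposite genes were Cdsn (-0.849), Gjb6 (-0.770), Spink5 (-0.769), Acss2 (-0.766) and Them5 (-0.758), and only 19 genes lay below -0.7. Cdsn, a skin desmosome protein, covered 4.97 to 5.46 log2, a narrow and dim range.

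The wider erythroid programme was read through 7 lists with 103 measured genes beside the 8. At 50 mg/kg, 1 of the 103 was higher and 0 were lower past the test, against 1.61% of all probe sets in either direction. An unadjusted p under 0.05 was found for 17 of the 103, against 4791 of all 31042 probe sets. Of the 103, 74 were below 0, with a median log2 fold change of -0.14, against 0.0058 over all genes. At 15 mg/kg none passed (6 unadjusted, against 3083 of all probe sets), 76 were below 0 and the median was -0.12. At 0.1 mg/kg none passed (3 unadjusted, against 763 of all probe sets), 66 were below 0 and the median was -0.05. Because most of these genes vary together, such counts do not stand for independent genes.

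Of 6 genes of globins and their chaperone measured by probe sets with 1 symbol, none passed at 50 mg/kg and 5 were below 0. Hba-a3, an α-globin gene, averaged 12.52 ± 0.550 log2 in 50 mg/kg livers and 13.10 ± 0.411 log2 in vehicle livers (SD, n = 5 each), with a log2 fold change of -0.58 ± 0.222 (SE, limma adjusted p = 0.211), and the embryonic Hbe1 had -0.14. The median likeness of this list to the 8 genes was 0.684. Of 16 red cell membrane and blood group genes, none passed and 14 were below 0. Aqp1, the water channel, had -0.70 (adjusted p = 0.356), Slc14a1, the urea transporter of the Kidd blood group, -0.67, Ank1, the ankyrin that ties band 3 to spectrin, -0.60, and Dmtn, dematin, -0.41. The median likeness there was 0.90, with Kel at 0.956 and Sptb at -0.63. Of 17 transcription factors, none passed and all 17 were below 0, at a median of -0.24, with Tal1 at -0.49, Myb at -0.45, Lyl1 at -0.39 and Nfe2 at -0.35. Of 21 genes of late maturation, none passed and 16 were below 0. Tent5c, a poly(A) polymerase, had -0.53 and Car1 -0.40, whereas Ube2l6, a ubiquitin and ISG15 conjugating enzyme, had 0.40 and Blvrb, biliverdin reductase B, 0.38.

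The iron and hormone lists were less like the erythroid genes. Of 19 genes of iron uptake and handling, none passed at 50 mg/kg, 7 were below 0 and the median log2 fold change was 0.09, with a median likeness of 0.03. Steap3, the endosomal reductase of iron brought in by transferrin, had -0.65 ± 0.195 (SE, limma adjusted p = 0.103), Hfe, a regulator of hepcidin, 0.59 (0.0936), Ireb2, an iron-responsive RNA binding protein, 0.52 (0.133), and the zinc and iron carrier gene Slc39a14 0.42 (0.222). Of 12 genes of erythropoietin receptor signalling, none passed and the median was -0.03, with a median likeness of 0.247. Stat5b, which carries the signal to the nucleus, averaged 6.18 ± 0.204 log2 in 50 mg/kg livers and 5.75 ± 0.240 log2 in vehicle livers, a log2 fold change of 0.42 with an adjusted p of 0.0724. Pim1, Socs3 and Epo itself, a dim probe set at 4.62 log2, had -0.25, 0.19 and 0.18. Many iron and STAT genes are also expressed by hepatocytes.

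Other blood cells of the liver were read in the same way. At 50 mg/kg, 0 of 9 megakaryocyte and platelet genes passed, 8 were below 0, and the median likeness to the 8 erythroid genes was 0.739. Of 9 neutrophil genes, 7 were below 0 and 1 was lower past the test, against 0.383% of all probe sets. That was Camp, the cathelicidin of their granules, at -0.94 ± 0.229 (SE, limma adjusted p = 0.0457). With the early and late block it did not pass (adjusted p = 0.245), and it passed in 1 of 10 fits that left out an array (0.00512 without vehicle replicate 1). Lcn2, next by size in this list, went the other way, at 0.84 ± 0.362 (SE, limma adjusted p = 0.274). None passed among 10 mast cell, basophil and eosinophil genes, 12 Kupffer cell and island macrophage genes, 14 genes of dividing cells and 7 of blood stem and progenitor cells. Among these blood cell lists the largest differences were those of the eosinophil granule genes Epx (-2.07) and Prg2 (-2.05), with SEs of 1.05 and 1.10. The median likeness was 0.649 for neutrophils, 0.440 for dividing cells, 0.112 for Kupffer cells and -0.29 for hepatocytes. It was lowest for the skeletal muscle list, at -0.46, whose 11 genes lay between -0.644 and -0.423. Of the hepatocyte (11 genes), endothelium (6), spleen and lymphoid (7), skeletal muscle (11) and exocrine pancreas (10) lists, 0 genes passed at 50 mg/kg.

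Of the heme synthesis list, 1 of 13 measured genes beside Alas2 passed at 50 mg/kg, Alas1, and 9 were below 0. Alas1 encodes the form of 5-aminolevulinate synthase found in all cells, which in hepatocytes supplies heme to the cytochrome P450 enzymes. Its log2 signals were 12.34, 12.23, 12.60, 12.38 and 12.21 in 50 mg/kg livers, against 10.63, 10.37, 11.00, 11.01 and 11.20 in vehicle livers. The groups did not overlap. The log2 fold change was 1.51 ± 0.211 (SE, 2.85-fold, limma adjusted p = 0.00159), and it passed in each of 10 fits that left out an array (1.39 to 1.60) and when early and late arrays were blocked (1.33, adjusted p = 0.0238). At 15 mg/kg Alas1 averaged 11.66 ± 0.102 log2 (n = 4), a log2 fold change of 0.81 with an adjusted p of 0.427, and at 0.1 mg/kg 10.93 ± 0.577 log2, where replicate 1, the array with the high Cyp1a1, had 11.89 log2 and the others 10.46 to 11.04. The remaining heme genes of largest difference were Abcb10 (-0.40), Slc25a37 (-0.35), the mitochondrial iron carrier, and Alad (-0.29), none of which passed. Fech, Urod and Cpox had likenesses of 0.955, 0.941 and 0.899 with the 8 genes, and Alas1 -0.07.

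The erythroid and the general form of the enzyme were then set against each other within each array. This pair was picked after the call of Alas1 was seen and shares its contrast, so the values are a description with no test. The difference of the log2 signals of Alas1 and Alas2 (on an arbitrary zero, since probe sets differ in brightness) was 1.67, 2.403, 1.40, 0.85 and 1.70 in 50 mg/kg livers, against 0.83, -0.48, -0.41, -0.76 and -0.48 in vehicle livers. The groups did not overlap, though 50 mg/kg replicate 4 and vehicle replicate 1 nearly met. At 15 mg/kg the differences were 1.13, 0.88, 0.87 and 0.61, with vehicle replicate 1 inside their range. At 0.1 mg/kg they were 0.96 in replicate 1, the array whose label is in doubt, and -0.41, -0.66, -0.13 and 0.05 in the others, which overlapped the vehicle livers.

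By median Pearson r of the log2 values Tfrc followed the others least, so its difference was also computed at equal erythroid level. That place of Tfrc among the medians did not hold with dose means subtracted or by Spearman's rho. The mean log2 signal of the 12 most like genes served as a covariate in the same fit over all probe sets. Both Tfrc and these 12 genes were singled out from the values of the same 19 arrays, so the result is given as a description with no test. That mean was 9.27 ± 0.861 log2 in 50 mg/kg livers and 9.63 ± 0.946 log2 in vehicle livers (SD, n = 5 each). With it, the log2 fold change at 50 mg/kg was 0.28 ± 0.0767 (SE) for the leading Tfrc probe set and 0.56 ± 0.120 (SE) for the other. In that fit 1.99% of all probe sets were called, from which nothing is read for the members. The log2 fold changes of the other 7 genes lay between -0.21 for Slc4a1 and 0.19 for Rhag.

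For the other Tfrc probe set this log2 fold change was 0.50 with the early and late block as well, 0.49 with the muscle and pancreas scores, and between 0.49 and 0.63 in 10 fits that left out an array. At 15 and 0.1 mg/kg it was 0.08 and 0.09. In the plot of Tfrc the 50 mg/kg arrays lie along the upper edge of the points for both probe sets.

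**Figure D5:**
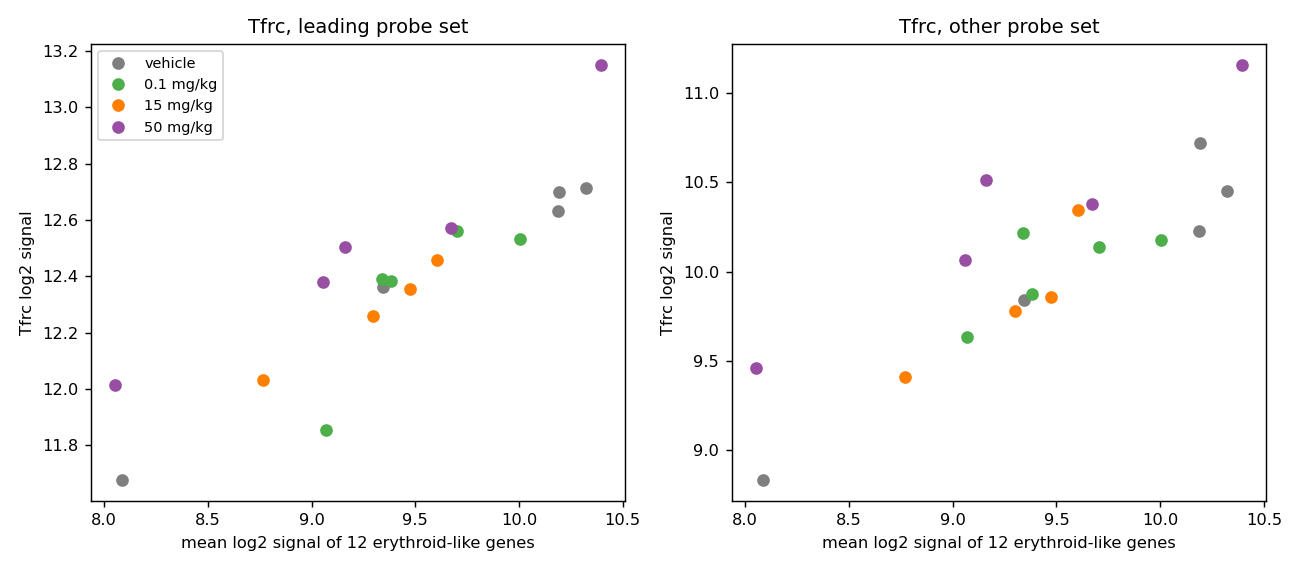
Log2 signal of the 2 Tfrc probe sets (y axes) against the mean log2 signal of the 12 genes most like the erythroid genes (x axis) on the 19 arrays, coloured by dose. Tfrc climbs with the erythroid level in all groups, and at a given level the 50 mg/kg arrays sit high, with 50 mg/kg replicate 4 highest on both axes.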

How the data were processed

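Liver RNA was measured on 19 Affymetrix Rat230_2 arrays. The deposited values are log2 signals, made with RMA (background correction, quantile normalization between arrays and a summary of the probes of a set) per the submitters' processing notes. The RMA version was not stated in these sources. The method compresses differences near the top and the bottom of the signal range. The number of arrays limits the precision.

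Of 31099 probe sets, 57 controls were left out. The platform annotation gives 20826 of the rest 1 symbol, 436 several and 9780 none, and 20758 were matched to RefSeq by gene ID. Probe sets with several symbols, among them most α-globin and some β-globin sets, were not named. The submitters' R/maanova comparison of vehicle with each dose was replaced by limma 3.58.1 in R 4.3.3, with 1 mean per dose group over all 19 arrays (degrees of freedom 15 residual, 2.78 prior). The p-values were adjusted by Benjamini-Hochberg over 31042 probe sets, with a threshold of 0.05. The fit was tested on simulated data. Correlations and their permutation tests used SciPy 1.17.1, with 100000 resamples over arrays.

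The genes named are the 8 members, up to 4 genes of each list with the largest difference at 50 mg/kg, all past the threshold, the 12 most and 5 least like the members, and label checks. A few more that a sentence singles out were chosen after their values were seen. The members and the lists were chosen with earlier results of these data known. Samples were grouped by their titles. The alternatives tried were other variance settings, the compared groups alone, a replicate block, a block for array number, other normalizations, a filter on dim probe sets, gene means, tissue scores, array weights and leaving arrays out. Leaving out the 3 arrays in doubt and the 12-gene covariate were added after the data were seen.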

Additional observations from a re-analysis of the deposited data

Results flagged for a closer look

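Of 32 sets of values (8 genes in 4 dose groups), 3 held an array set apart from the others of its group by most of the group's range. Hbb had 14.219 log2 in vehicle replicate 1, where the next array of the group had 14.471. Gata1 had 6.3667 log2 in 15 mg/kg replicate 2, against 6.9405 for the next, the other 3 arrays lying within 0.02 of each other. Tfrc had 11.852 log2 in 0.1 mg/kg replicate 5, against 12.385 for the next. Chance flags about 1 in 20 groups, and the 8 genes share their arrays. Vehicle replicate 1 also had the highest mean of the muscle genes, 11.36 log2. Their part in the value was not tested.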

How the results depend on the processing

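Over 24 member differences and 584 alternative values, 0 passed the threshold and 51 changed sign. Fits that joined the 12-gene covariate with another term, run for Tfrc only, are not among these. In 1 of them the leading Tfrc probe set passed the threshold (below). Nothing is read from that, because Tfrc and the 12 genes were picked from the same arrays. With a block for early and late arrays, Gata1, Klf1 and Rhag at 50 mg/kg were at 0.046, 0.10 and 0.21 log2, without the 3 doubted arrays as well at 0.055, 0.10 and 0.30, and with the 12-gene covariate at 0.043, 0.11 and 0.19. Array weights put Tfrc at 50 mg/kg at -0.020. With the covariate, Hbb, Klf1, Tfrc and Rhag at 15 mg/kg were at 0.015, 0.041, 0.023 and 0.049, and Hbb, Gata1, Klf1 and Epor at 0.1 mg/kg at 0.012, 0.026, 0.016 and 0.027. At 0.1 mg/kg, centred arrays put Hbb at 0.0032, and Rhag was at -0.50 with the muscle and pancreas (tissue) scores, -0.19 with array weights and -0.25 with the block and without the 3 doubted arrays. Leaving out 1 array, the 50 mg/kg values ran from -0.73 to 0.040 for Gata1, -0.74 to 0.031 for Klf1, -0.077 to 0.24 for Tfrc and -0.68 to 0.13 for Rhag. At 0.1 mg/kg they ran from -0.071 to 0.015 for Hbb, -0.46 to 0.032 for Alas2, -0.49 to 0.065 for Gata1, -0.56 to 0.10 for Klf1, -0.24 to 0.066 for Epor, -0.26 to 0.050 for Tfrc and -0.44 to 0.28 for Rhag.

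The 499 probe sets called at 50 mg/kg became 57 with the early and late block, 216 with that block and without the 3 doubted arrays, 267 with tissue scores, 921 with array weights and 178 to 593 leaving out 1 array. The 0 at 15 mg/kg became 2 with the compared groups alone, 7 with the block, 4 above the median level, 4 with gene means, 11 with tissue scores, 13 with array weights, 11 without 0.1 mg/kg replicate 1, 10 without the 3 doubted arrays and 14 without them and with the block. The erythroid list genes called at 50 mg/kg were 1, or 2 with array weights (Alad, -0.40) and 1 to 2 leaving out 1 array (Stat5b). With the covariate 4 were called, in a fit that called 1.99% of all probe sets. Nothing is read from that count, because the covariate's genes were picked from the same arrays and many of them are in these lists. The causes were not tested. The median correlation of the pairs moved from 0.918 to between 0.862 and 0.954 over all alternatives.

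Replicate numbers did not pair the arrays. The correlation of deviations from the group means ran from -0.534 to 0.889 over 27 same-numbered pairs (median 0.0361, 11 over 0.1) and had a median of 0.00163 over 108 others, and 6 of 19 arrays correlated best with their own number. The replicate block gave 511 calls at 50 mg/kg and 0 members. Joined with the covariate, it put the leading Tfrc probe set at 0.30, against 0.28 with the covariate alone. That is the fit in which this probe set passed, and it is given as a description with no test. Signal near the top of the scale limits Hbb, and 4 or 5 arrays a group limit every difference.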
